A study of Rattus norvegicus with 13 samples.

Results

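The subunits of the receptors for GABA and glutamate, the main inhibitory and excitatory transmitters of the forebrain, were examined in the ventricular zone (VZ) of neonatal rats. A transcript was included when its gene name was that of a GABA-A, GABA-B, AMPA, kainate, NMDA, delta or metabotropic glutamate receptor subunit and its mean was at least 10 normalized counts over all pups. Of the 14606 rows with that mean, 37 matched by name. Of these, 1 matched by its first letters only and is no subunit, so 36 subunits remained, each with 1 row: 11 of GABA-A, 2 of GABA-B, 3 of AMPA, 5 of kainate, 6 of NMDA, 2 of delta and 7 of metabotropic receptors. All 37 matching rows passed the filter on the mean. Counts, medians and sums below cover the 36 subunits, and 31 of them are described singly. Another 11 subunit names have no row and were not analysed here: *Gabra6*, *Gabrd*, *Gabre*, *Gabrp*, *Gabrq*, *Gabrr1*, *Gabrr2*, *Gabrr3*, *Gria3*, *Grin3b* and *Grm6*.

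GABA-A receptors are chloride channels built from 5 subunits, usually of the α, β and γ classes, and in immature neurons GABA can depolarize because intracellular chloride is high. GABA-B receptors are pairs of *Gabbr1* and *Gabbr2* products that act through G proteins. AMPA, kainate and NMDA receptors are cation channels opened by glutamate, and metabotropic glutamate receptors signal through G proteins. Progenitors of the VZ and the young neurons that pass through it carry several of these receptors, and GABA and glutamate are known to influence proliferation and migration there.

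The samples were 7 control and 6 PTU exposed Long Evans pups, all male and taken on PN2, with 1 pup from each litter. Dams of the exposed pups drank deionized water with 3 ppm 6-propyl-2-thiouracil (PTU), which blocks thyroid hormone synthesis, from GD6 onward, and dams of the control pups drank the vehicle alone. The posterior ventricular epithelium was cut out by laser from frozen sections, recognized by its pseudostratified appearance, and sequenced as total RNA. Values are normalized counts, reads assigned to a transcript and divided by a scaling factor of each pup, and 1 normalized count stood for about 1 read. They were not divided by transcript length, so levels are compared between pups and not between genes.

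The radial glia markers expected of the VZ were present, with *Vim* at a mean of 23550 and *Sox2* at 7107 normalized counts in control pups. Markers of other cells were present as well. For the counts that follow, 50.7% of all rows had a higher mean log2 value in PTU exposed pups, and 8.11% were higher and 8.2% lower with an unadjusted p under 0.05 in limma. The 10 neuron markers summed to 53514 to 77410 normalized counts in control pups and 70288 to 122860 in PTU exposed pups, and all 10 had a higher mean log2 value in PTU exposed pups (9 without PTU pup 1), 5 of them with an unadjusted p under 0.05. The 9 radial glia markers with a row summed to 74103 to 103270 and 61434 to 81303, respectively, and all 9 were lower, 6 of them with an unadjusted p under 0.05. The 6 choroid plexus markers, led by *Ttr*, were also all lower, with sums of 47937 to 135480 and 22164 to 94842. Higher means in PTU exposed pups were found for 9 of 9 markers of GABA neurons, 2 of 6 of glutamate neurons, 5 of 5 of oligodendrocyte precursors, 1 of 5 of intermediate progenitors, 0 of 5 of astrocytes, 0 of 3 of ependyma, 3 of 4 of endothelium, 4 of 6 of microglia and 0 of 1 of erythrocytes. With equal totals in all pups, the median log2 fold change was 0.59 for the neuron markers, -0.16 for radial glia, -0.02 for astrocytes and -0.63 for choroid plexus. Over all rows it was 0.20 under that scaling. In bulk tissue, fewer cells of a type and less RNA per cell cannot be told apart.

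PTU pup 1 stood apart. It had the highest sum of neuron markers, 122860 against at most 98241 in the other PTU exposed pups, and held 2992 normalized counts of the vesicular glutamate transporter *Slc17a7* where no other pup exceeded 186.1. Its *Neurod6*, a marker of cortical excitatory neurons, was 4253 against at most 1312 elsewhere. Other markers differed. Its glutamate neuron markers summed to 15095, below the 16933 of PTU pup 6. Its GABA neuron markers summed to 14101, the lowest of the PTU exposed pups. It was the highest of 13 pups for 17.8% of all rows and for 22 of the 36 subunits (61.1%). It reached at least 2 times the median of the other pups in 19 subunits (52.8%) and in 7.22% of all rows, and it was far above the other PTU exposed pups by the gap test of the closing section in 7 of the 31 subunits described singly and in 4.71% of all rows. Values without this pup are therefore given beside those of each subunit described, and beside those of other genes where they differ by over 1.5 times, and the part of neuron content in them was not tested.

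Of the 22 subunits with a promoter in the RefSeq table (GRCr8; 250 bases before to 50 after the start), only *Gabrb1* and *Gabrb2* held the letters GCGCATGCGC, the palindrome bound by the activator NRF1, which occur on either strand in 0.852% of 33469 promoter windows. The 250 bases before each start are shown because the transcripts of these β subunit genes had group differences of opposite sign, neither past the threshold (log2 fold changes -0.40 and 0.33). Capitals mark the NRF1 letters, which begin 29 bases before the start of *Gabrb1* (chr14:36902894-36903143, minus strand) and 95 bases before that of *Gabrb2* (chr10:27439543-27439792, plus strand).
Gabrb1: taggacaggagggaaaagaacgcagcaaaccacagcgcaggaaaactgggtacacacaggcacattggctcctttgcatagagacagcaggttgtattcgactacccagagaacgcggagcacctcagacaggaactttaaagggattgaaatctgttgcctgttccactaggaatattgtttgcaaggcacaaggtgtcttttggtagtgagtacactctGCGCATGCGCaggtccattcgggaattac
Gabrb2: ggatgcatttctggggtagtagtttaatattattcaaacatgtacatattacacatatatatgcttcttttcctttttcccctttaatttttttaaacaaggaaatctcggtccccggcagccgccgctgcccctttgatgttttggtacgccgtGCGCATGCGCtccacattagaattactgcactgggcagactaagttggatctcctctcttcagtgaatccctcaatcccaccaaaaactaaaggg
The other letters searched on both strands were CAGCACC and GGACAG, the parts of the RE1 element bound by the neuronal repressor REST, and the E-box CAGCTG. They occurred in 0, 4 and 5 of the 22 members and in 6.78%, 21.7% and 15.1% of all windows. No motif contains the letters of another. A match describes the sequence and is not a binding site.

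The first question was whether PTU exposure changed receptor transcripts in the VZ. No subunit passed an adjusted p of 0.05 in limma, and neither did any other row (0 of 14606, 0.0%, smallest adjusted p = 0.0981), while 2383 rows had an unadjusted p under 0.05. The subunits nevertheless lay mostly on the higher side. In PTU exposed pups 29 of 36 (80.6%) had a higher mean log2 value, against 50.7% of all rows, and the median log2 fold change of the subunits was 0.41 against 0.00 over all rows. An unadjusted p under 0.05 was found for 13 subunits (36.1%), against 16.3% of all rows. Of these, 11 were higher (30.6%, background 8.11%) and 2 were lower (5.56%, background 8.2%). By exact permutation (two-sided, unadjusted), 11 subunits (30.6%) had a p under 0.05, against 15.3% of all rows. They included 10 of the 13, and the exceptions were *Gabrb1* (exact p = 0.0705), *Grin1* (exact p = 0.1002) and *Grin3a* (exact p = 0.0717). No subunit had groups that did not overlap, which 0.596% of all rows had. Leaving out control pup 3, 5 or 6, or PTU pup 1 or 6, reduced the 13 subunits to 8, 7, 6, 6 and 6 (22.2%, 19.4%, 16.7%, 16.7% and 16.7%, against 12.6%, 13.5%, 16.6%, 14.3% and 12.3% of all rows). Leaving out PTU pup 2 raised the calls over all rows to 179 (1.23%), with 0 subunits among them.

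The higher side became smaller, and did not turn, without PTU pup 1. Then 27 of 36 subunits (75.0%) were higher, with 50.2% of all rows, the median log2 fold change was 0.24, and 6 subunits (16.7%) had an unadjusted p under 0.05, a share close to the 14.3% of all rows. The 11 higher and 2 lower subunits at that threshold also depended on the scaling. With equal totals in all pups, the median of all rows moved to 0.20, that of the subunits to 0.61, and 33 subunits (91.7%) were higher against 78.5% of all rows. Under that scaling 16 subunits (44.4%) were higher and 0 lower at an unadjusted p under 0.05, against 10.8% and 0.555% of all rows.

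**Figure D1:**
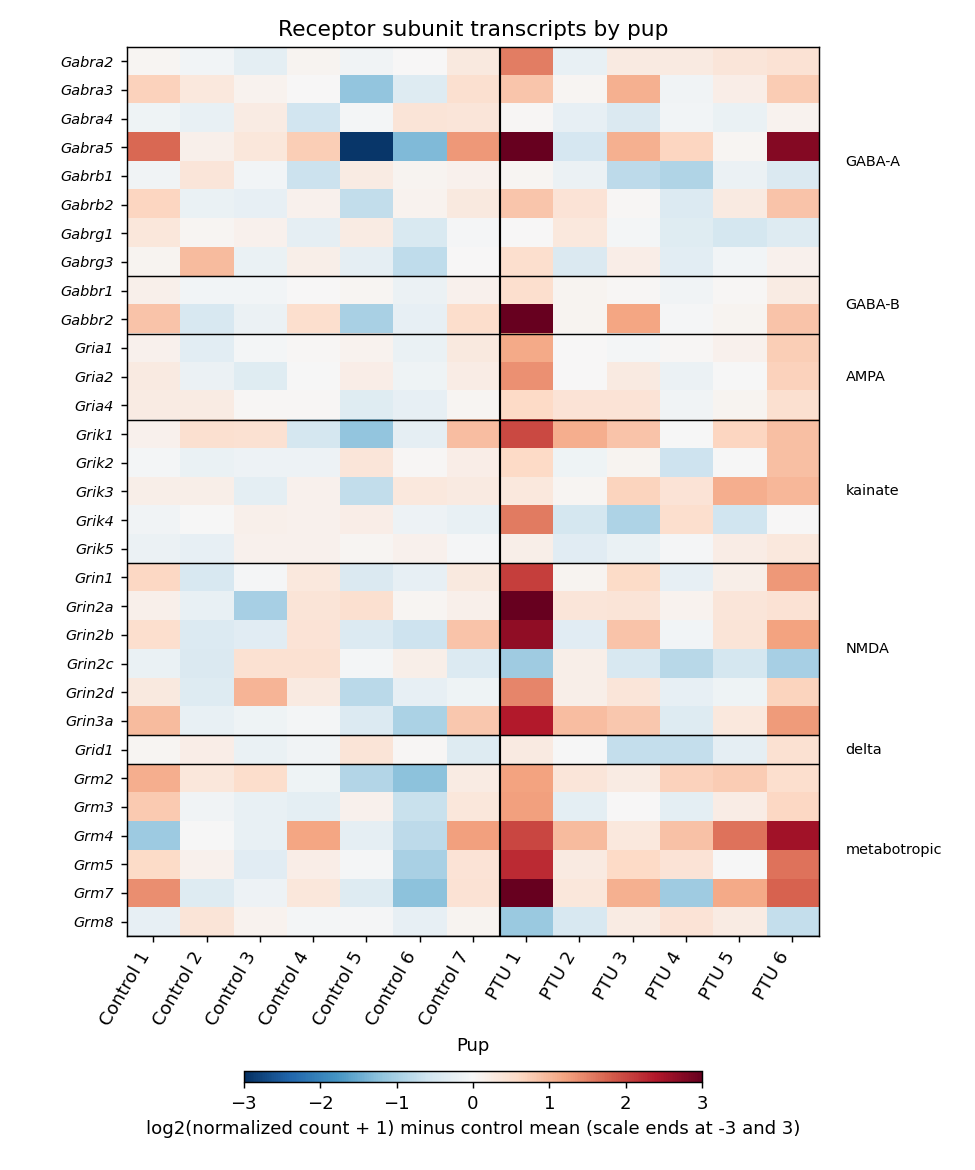
Each row is 1 of 31 subunits, grouped by family, and each column a pup (7 control left of the line, 6 PTU exposed right of it); colour gives log2(normalized count + 1) minus the control mean of that subunit, with the scale ending at -3 and 3. The column of PTU pup 1 is the reddest, being the highest of 13 pups in 18 of the 31 subunits, and PTU pup 6 is the highest in another 5.

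The plot of subunits by pup shows that the difference was carried unequally within the PTU group. PTU pup 6 was the highest for 5 of the 36 subunits, against 989 of 14606 rows (6.77%). After PTU pup 1 it had the largest sum in the GABA-A, GABA-B, AMPA, NMDA and metabotropic families. The 11 GABA-A subunits summed to 3055 to 4429 normalized counts in control pups, to 8936 in PTU pup 1 and to at most 5680 in the other PTU exposed pups. The 6 NMDA subunits summed to 1160 to 2314 in control pups, to 8128 in PTU pup 1 and to at most 3413 in the others. The 3 AMPA subunits summed to 4322 to 5767 in control pups and to 11286 and 7879 in PTU pups 1 and 6, while the lowest PTU exposed pup was at 4618. The sums of the delta and kainate families were highest in PTU pup 6, at 1055 and 5032, and control pups reached 955 and 3557.

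Among GABA-A receptors, 7 of 11 subunits had a higher and 4 a lower mean after PTU exposure (median log2 fold change 0.44, and 0.23 without PTU pup 1), and 3 higher and 1 lower had an unadjusted p under 0.05 (8.11% and 8.2% of all rows). *Gabra2*, for the α2 subunit that predominates early in life, ranged from 447 to 674 normalized counts (median 554) in control pups and from 466 to 1590 (median 683) in PTU exposed pups. The upper end belonged to PTU pup 1 alone. Its means were 552 ± 70.9 and 804 ± 397 (SD, n = 7 and n = 6), and the log2 fold change of 0.44 (SE 0.20; limma adjusted p = 0.294) was 0.22 without that pup.

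*Gabrb1*, for the β1 subunit, differed in the other direction. Its normalized counts ranged from 247 to 500 in controls, with a median of 407, and from 207 to 403 after PTU exposure, with a median of 314. In the PTU group 5 of 6 pups lay below the control mean, and the exception was PTU pup 1. Means were 395 ± 82.4 and 300 ± 75.6 (SD, n = 7 and n = 6), with a log2 fold change of -0.40 (SE 0.18; limma adjusted p = 0.293) and of -0.50 without PTU pup 1. It was -0.20 with the same total for every pup.

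Another 6 GABA-A subunits had adjusted p-values from 0.372 to 0.997. *Gabra5*, for the α5 subunit known from extrasynaptic receptors of the hippocampus, had a log2 fold change of 1.40 (SE 0.77), which was 0.81 without PTU pup 1 and 0.91 without control pup 5. Its spread was very wide, from 11.1 to 298 normalized counts in control pups and from 63.7 to 1833 in PTU exposed pups. *Gabra3* and *Gabrb2* were at 0.47 and 0.33, at 0.39 and 0.23 without PTU pup 1, and at 0.27 and 0.21 without control pup 5. *Gabra4* (-0.14), *Gabrg1* (-0.16) and *Gabrg3* (-0.00) stood near or below 0. They were at -0.17, -0.20 and -0.10 without PTU pup 1. With 1 pup left out, *Gabra4* ran from -0.24 (control pup 4) to -0.0758 (control pup 6) and *Gabrg1* from -0.26 (PTU pup 2) to -0.0913 (PTU pup 5). With the same total for every pup all 3 were above 0, but below the median of all rows (0.204).

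Many GABA-A genes lie side by side, and in this scaling neighbours did not all share a direction. On chromosome 14, in the gene order of RefSeq GRCr8, *Gabrb1* (-0.40) and *Gabra4* (-0.14) are followed, after 1 other protein-coding gene, by *Gabra2* (0.44) and *Gabrg1* (-0.16). On chromosome 1, *Gabrg3* (-0.00) adjoins *Gabra5* (1.40). These are log2 fold changes of PTU exposed over control pups, and differences between neighbours were not tested.

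**Figure D2:**
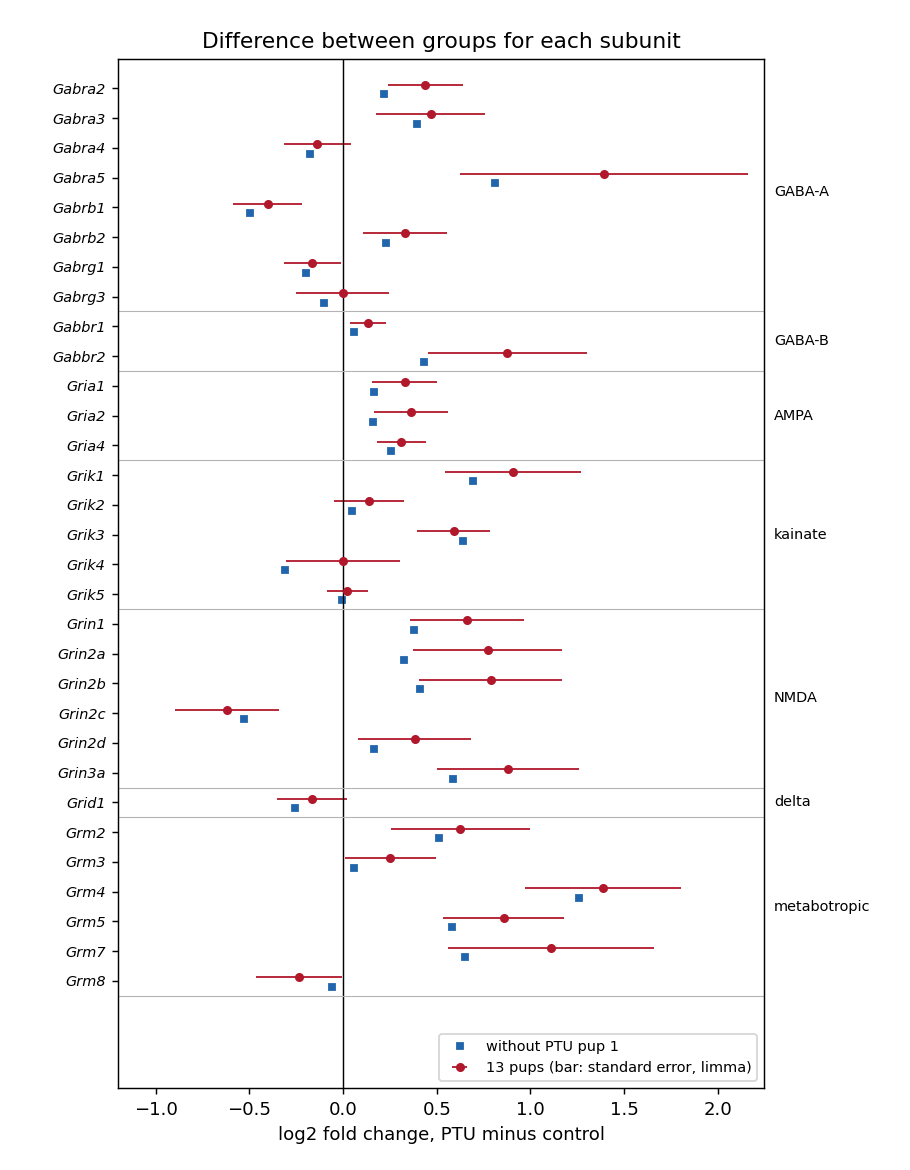
Circles give the log2 fold change of each of 31 subunits, PTU exposed minus control pups (13 pups), with bars for the limma standard error; squares give the value without PTU pup 1. Most circles lie to the right of 0 (24 of 31), and for most of these the square lies closer to 0, as for *Gabra5* (1.40 and 0.81).

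Both GABA-B subunits had a higher mean. *Gabbr1*, which binds GABA, ranged from 9380 to 11790 normalized counts in controls, with a median of 10820, and from 9934 to 15190 after PTU exposure, with a median of 11156. The groups overlapped widely. Means were 10713 ± 897 and 11822 ± 1865 (SD, n = 7 and n = 6), with a log2 fold change of 0.13 (SE 0.10; limma adjusted p = 0.501), or 0.06 without PTU pup 1. *Gabbr2*, which couples the pair to G proteins, spanned 251 to 900 normalized counts (median 439) in control pups and 484 to 4297 (median 714) in PTU exposed pups. PTU pup 1 gave the value of 4297, 8.17 times the median of the other 12 pups. The log2 fold change of *Gabbr2* was 0.88 (SE 0.42; limma adjusted p = 0.315) and 0.43 without that pup.

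All 3 AMPA subunits had a higher mean and all 3 were highest in PTU pup 1. *Gria2*, whose edited product makes the channel impermeable to calcium, ranged from 1976 to 3068 normalized counts in controls, with a median of 2486, and from 2246 to 6541 after PTU exposure, with a median of 2809. PTU pup 1 again lay far from the others, and the medians of the groups were close. Means were 2554 ± 416 and 3500 ± 1629 (SD, n = 7 and n = 6), a log2 fold change of 0.36 (SE 0.20; limma adjusted p = 0.369), or 0.16 without PTU pup 1. *Gria4*, for a subunit of early circuits, ranged from 636 to 968 (median 837) and from 756 to 1239 (median 1082), respectively. In 5 of 6 PTU exposed pups it was above the control mean. Means were 825 ± 127 and 1028 ± 182 (SD, n = 7 and n = 6), and the log2 fold change was 0.31 (SE 0.13; limma adjusted p = 0.26), or 0.25 without PTU pup 1. *Gria1* had a log2 fold change of 0.33, and of 0.17 without PTU pup 1.

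The 5 kainate subunits had log2 fold changes from 0.00 to 0.91, and 2 of them, both higher, had an unadjusted p under 0.05 (8.11% of all rows were higher at that threshold). *Grik3*, for a low affinity channel-forming subunit, did not rest on PTU pup 1. It ranged from 219 to 454 normalized counts in controls, with a median of 411, and from 383 to 783 after PTU exposure, with a median of 531. All 6 PTU exposed pups lay above the control mean, PTU pup 5 being the highest and PTU pup 1, at 460, among the lower values. Means were 376 ± 85.6 and 569 ± 158 (SD, n = 7 and n = 6), with a log2 fold change of 0.59 (SE 0.19; limma adjusted p = 0.174; exact permutation test p = 0.0163, two-sided). Without PTU pup 1 it was 0.64.

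*Grik1*, for another channel-forming kainate subunit, ranged from 16.7 to 75.1 normalized counts in controls, with a median of 43.0, and from 38.8 to 158 after PTU exposure, with a median of 73.1. Means were 43.5 ± 19.9 and 81.7 ± 40.6 (SD, n = 7 and n = 6), and 5 of 6 PTU exposed pups exceeded the control mean. The log2 fold change was 0.91 (SE 0.36; limma adjusted p = 0.239), or 0.69 without PTU pup 1. *Grik5* and *Grik4* encode subunits that need such a partner. *Grik5*, with the highest mean of the family, ranged from 1448 to 1871 (median 1781) and from 1356 to 2120 (median 1796), and its means of 1718 ± 173 and 1761 ± 308 (SD, n = 7 and n = 6) gave a log2 fold change of 0.02 (SE 0.11; limma adjusted p = 0.937), or -0.01 without PTU pup 1. *Grik4* ranged from 171 to 230 in control pups and far more widely, from 105 to 593, in PTU exposed pups. The difference was 0.00 on the log2 scale (SE 0.30), but -0.31 without PTU pup 1, -0.24 with array weights and 0.20 with equal totals (median of all rows 0.20). *Grik2*, a further channel-forming subunit, was at 0.14 (SE 0.19), or 0.05 without PTU pup 1.

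Of the 6 NMDA subunits, 5 were higher and 1 lower, and all 5 higher subunits had their highest value in PTU pup 1. *Grin1*, the subunit every NMDA receptor needs, ranged from 322 to 691 normalized counts in controls, with a median of 439, and from 381 to 1905 after PTU exposure, with a median of 595. Means were 469 ± 138 and 845 ± 581 (SD, n = 7 and n = 6), with a log2 fold change of 0.66 (SE 0.31; limma adjusted p = 0.295), or 0.38 without PTU pup 1. *Grin2b*, the glutamate-binding subunit of the immature forebrain, had the highest mean of the family. It ranged from 464 to 1301 (median 567) and from 568 to 4556 (median 1118). With 4556 normalized counts, PTU pup 1 was at 5.66 times the median of the other 12 pups. Means were 767 ± 321 and 1616 ± 1496 (SD, n = 7 and n = 6), and the log2 fold change was 0.79 (SE 0.38; limma adjusted p = 0.317), or 0.41 without PTU pup 1.

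*Grin3a*, for a glycine-binding subunit that lowers calcium entry in the young brain, ranged from 61.9 to 237 normalized counts in controls, with a median of 112, and from 92.1 to 633 after PTU exposure, with a median of 223. In 5 of 6 PTU exposed pups it exceeded the control mean. Means were 134 ± 65.6 and 270 ± 191 (SD, n = 7 and n = 6), a log2 fold change of 0.88 (SE 0.38; limma adjusted p = 0.269), or 0.59 without PTU pup 1. *Grin2c*, which in the adult marks cerebellar granule cells and astrocytes, was the subunit with the most negative log2 fold change. It ranged from 42.1 to 80.1 (median 55.7) in control pups and from 27.1 to 65.6 (median 35.8) in PTU exposed pups. PTU pup 1 had the lowest value and PTU pup 2 the only one of its group above the control mean. Means were 59.4 ± 16.0 and 39.0 ± 14.3 (SD, n = 7 and n = 6), with a log2 fold change of -0.62 (SE 0.28; limma adjusted p = 0.285), or -0.53 without PTU pup 1. *Grin2a* and *Grin2d*, the other glutamate-binding subunits, were at 0.77 (SE 0.40) and 0.38 (SE 0.30), and at 0.33 and 0.17 without PTU pup 1. *Grin2d* was at 0.25 without control pup 5 and at 0.0896 when pups were weighted by their spread (array weights).

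All 5 markers of astrocytes were lower in PTU exposed pups too, 2 of them with an unadjusted p under 0.05 (8.2% of all rows; summed level 20936 to 25450 in control and 14732 to 23696 in PTU exposed pups). With equal totals in all pups 2 of the 5 were higher, against 78.5% of all rows. Their part in the value of *Grin2c* was not tested.

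In the delta family, *Grid1*, whose product binds cerebellins and neurexins across the synapse, ranged from 467 to 804 normalized counts in controls, with a median of 627, and from 372 to 835 after PTU exposure, with a median of 554. Means were 620 ± 112 and 571 ± 191 (SD, n = 7 and n = 6), with a log2 fold change of -0.17 (SE 0.19; limma adjusted p = 0.682), which ranged from -0.29 to -0.0574 with 1 pup left out (-0.26 without PTU pup 1, nearest to 0 without PTU pup 3 or 4). With the same total for every pup it became 0.03, below the median of all rows (0.20). The groups overlapped over most of their range.

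**Figure D3:**
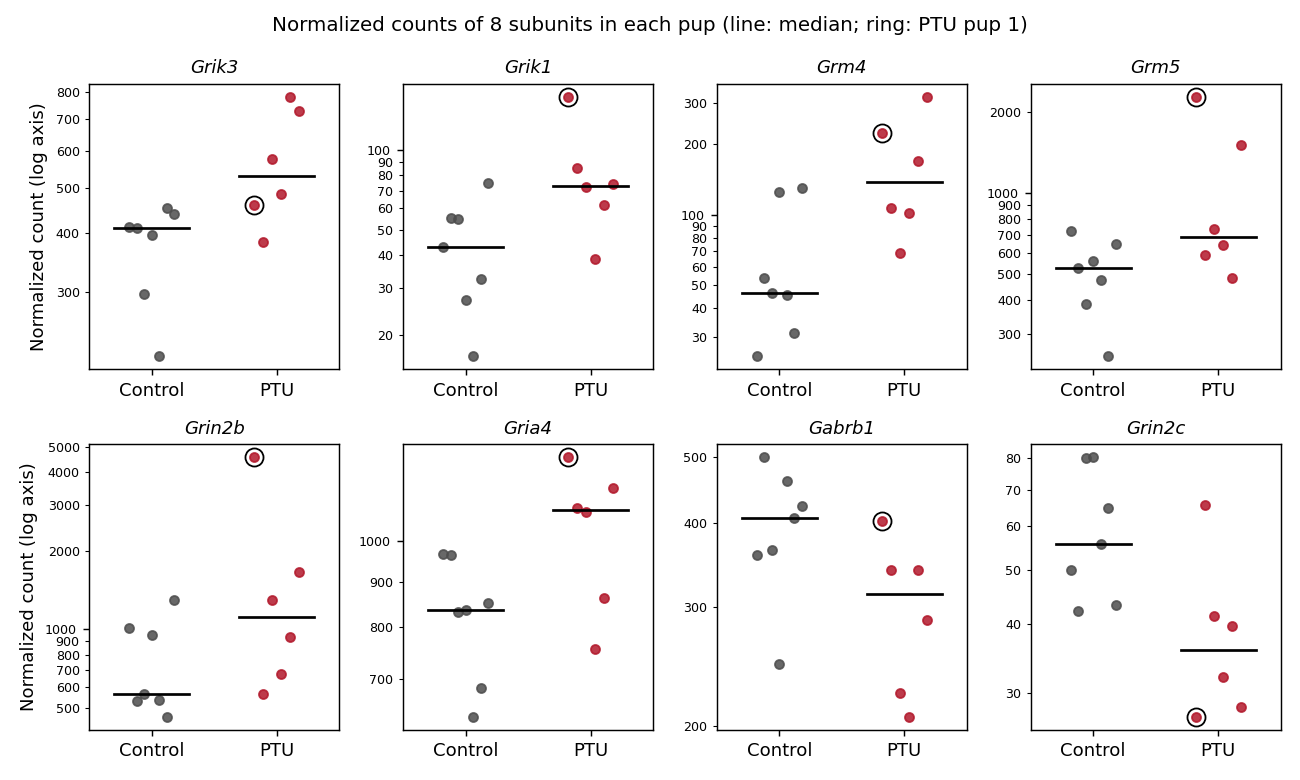
Normalized counts (log axis, scaled separately for each subunit) of *Grik3*, *Grik1*, *Grm4*, *Grm5*, *Grin2b*, *Gria4*, *Gabrb1* and *Grin2c*; each point is a pup, lines are group medians and rings mark PTU pup 1. The groups overlap in every panel; PTU pup 1 is the highest PTU exposed pup for *Grik1*, *Grm5*, *Grin2b*, *Gria4* and *Gabrb1*, but not for *Grik3* or *Grm4*.

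Of the 7 metabotropic glutamate receptors, 6 had a higher mean and the median log2 fold change was 0.86, or 0.58 without PTU pup 1. *Grm4*, a presynaptic receptor that lowers cyclic AMP, ranged from 25.0 to 130 normalized counts in controls, with a median of 46.5, and from 69.0 to 320 after PTU exposure, with a median of 139. The control pups fell into 5 low values and a pair of higher ones, all 6 PTU exposed pups lay above the control mean, and PTU pup 6 was the highest. Means were 65.3 ± 43.5 and 165 ± 93.9 (SD, n = 7 and n = 6), with a log2 fold change of 1.39 (SE 0.42; limma adjusted p = 0.15; exact permutation test p = 0.0169, two-sided), or 1.26 without PTU pup 1.

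*Grm5*, which releases calcium from stores and is expressed by neural progenitors, ranged from 248 to 721 (median 526) in control pups and from 483 to 2285 (median 687) in PTU exposed pups. PTU pup 1 was highest and PTU pup 6 second. Means were 509 ± 159 and 1040 ± 713 (SD, n = 7 and n = 6), a log2 fold change of 0.86 (SE 0.32; limma adjusted p = 0.213; exact permutation test p = 0.0443, two-sided), or 0.58 without PTU pup 1.

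*Grm3*, a receptor of neurons and glia and the row with the highest mean in this family, ranged from 549 to 1506 (median 808) in control pups and from 710 to 2045 (median 940) in PTU exposed pups. Means were 909 ± 315 and 1114 ± 513 (SD, n = 7 and n = 6), a log2 fold change of 0.25 (SE 0.25; limma adjusted p = 0.629), or 0.06 without PTU pup 1. It was 0.39 without control pup 1, 0.14 without control pup 6 and 0.45 with the same total for every pup (median of all rows 0.20). *Grm2* was at 0.63 (SE 0.37), *Grm7* at 1.11 (SE 0.55) and *Grm8* at -0.24 (SE 0.23), with PTU pup 1 the highest of all pups for the first pair and the lowest for *Grm8*. Without that pup they were at 0.51, 0.65 and -0.06. *Grm8* was at -0.36 without PTU pup 4, -0.14 without PTU pup 6 and -0.04 with the same total for every pup.

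Subunits of partner receptors were then set against each other within each pup, which removes the scaling of that pup. The log2 ratio of *Grin2a* over *Grin2b*, known to climb as forebrain synapses mature, was -3.11 ± 0.62 in control pups and -3.12 ± 0.54 in PTU exposed pups (SD, n = 7 and n = 6), a difference of -0.02 (two-sided exact permutation p = 0.961). The ratio of *Gria2* over *Gria1* differed by 0.03 (p = 0.737, exact), that of *Grin3a* over *Grin1* by 0.22 (p = 0.342, exact), a difference of 0.0944 without PTU pup 2, and that of *Gabbr2* over *Gabbr1* by 0.75 (p = 0.121, exact), or 0.37 without PTU pup 1. None of these passed, and their adjusted p-values, over the 6 ratios computed, lay between 0.364 and 0.961.

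A further ratio was that of *Slc12a5*, the chloride exporter KCC2, over *Slc12a2*, the importer NKCC1, which together set the direction of the GABA-A current. It ranged from -5.70 to -3.53 in control pups and from -3.94 to -1.58 in PTU exposed pups. All 6 PTU exposed pups lay above the control mean, and the highest were PTU pups 6 and 1. Means were -4.34 ± 0.80 and -2.89 ± 1.05 (SD, n = 7 and n = 6), a difference of 1.45 on the log2 scale (two-sided exact permutation p = 0.00874; adjusted over 6 ratios p = 0.0525). The adjusted p passed 0.05 when control pup 7, PTU pup 3 or PTU pup 4 was left out (exact adjusted p = 0.026, 0.0455 and 0.0227). Control pup 7 had the highest ratio of the control pups, and PTU pups 4 and 3 the lowest of the PTU exposed pups. Leaving 1 of them out had to widen the difference, so these values add no support. Without PTU pup 1 the difference was 1.196 (exact adjusted p = 0.136). Among the markers given above, all 10 of neurons were higher in PTU exposed pups and all 9 of radial glia and all 6 of choroid plexus lower, and their part in this ratio was not tested.

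**Figure D4:**
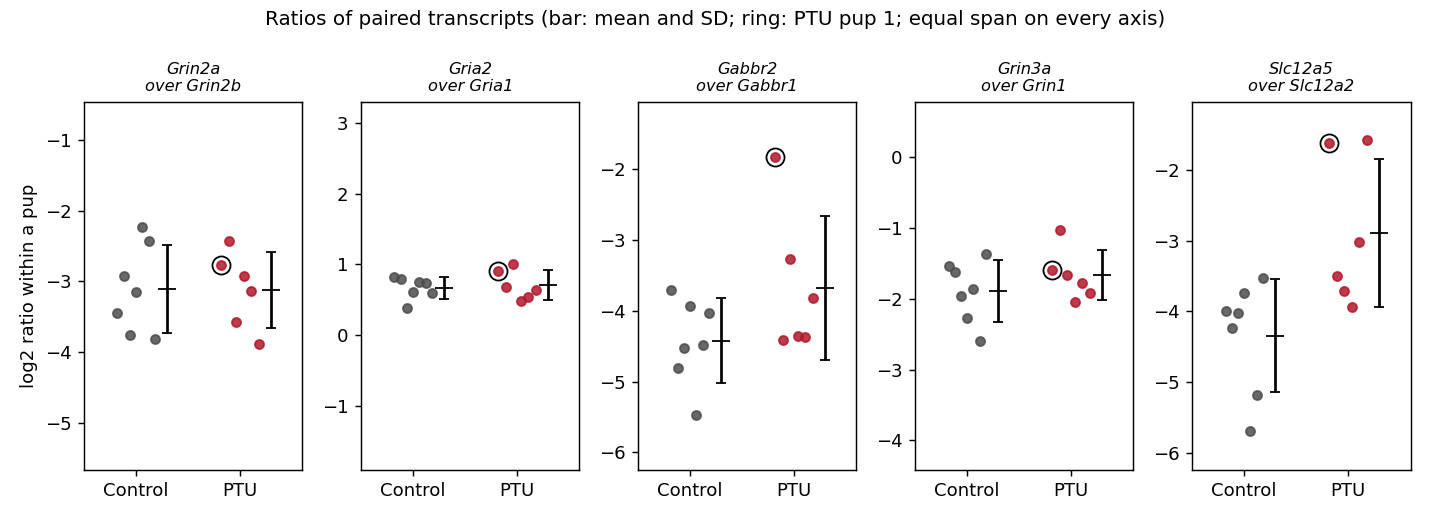
Each panel plots a log2 ratio of normalized counts within a pup (points; 7 control, 6 PTU exposed), with bars for the mean and SD of each group, PTU pup 1 ringed and the same span on every axis. All 6 PTU exposed pups lie above the control mean (-4.34) for *Slc12a5* over *Slc12a2*, and the 2 groups lie at the same level for *Grin2a* over *Grin2b* (-3.11 and -3.12).

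The genes that supply, anchor and assist the receptors were examined as lists, and no gene in them passed an adjusted p of 0.05. The median log2 fold changes were 0.19 for GABA synthesis and transport, 0.13 for GABA receptor anchoring, -0.09 for chloride cotransport, -0.13 for glutamate transport, 0.18 for auxiliary subunits, 0.28 for scaffolds, 0.31 for delta receptor partners and -0.09 for glycine supply, beside 0.00 over all rows. The counts below are to be read against 50.7% of all rows higher, and 8.11% higher and 8.2% lower with an unadjusted p under 0.05. The 3 negative medians were above 0 with equal totals in all pups (0.11, 0.08 and 0.11), but below the 0.20 over all rows under that scaling. Without PTU pup 1 the medians were -0.21 for glutamate transport, -0.00 for auxiliary subunits, 0.17 for scaffolds and 0.19 for delta receptor partners. Of 8 genes for GABA synthesis and transport, 5 were higher and 3 lower, and 3 higher ones had an unadjusted p under 0.05 (37.5%, background 8.11%), among them *Gad1*, which makes GABA (log2 fold change 0.42, SE 0.18), and the vesicular carrier *Slc32a1* (0.40, SE 0.19). *Abat*, which degrades GABA, was at -0.18 (SE 0.10). Of 13 genes for anchoring and modulation of GABA receptors, 11 were higher (84.6%) and 4 of them had an unadjusted p under 0.05 (30.8%, background 8.11%). Among these were *Shisa7* (0.56, SE 0.24), *Gabarapl1* (0.23, SE 0.11) and *Gphn*, for the scaffold gephyrin (0.25, SE 0.12).

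Of 7 chloride cotransport genes with a row, 2 were higher and 5 lower. With equal totals in all pups 5 were higher, where 78.5% of all rows were. *Slc12a5* ranged from 59.0 to 277 normalized counts in control pups and from 180 to 854 in PTU exposed pups, with means of 156 ± 74.7 and 371 ± 271 (SD, n = 7 and n = 6). Its log2 fold change was 1.14 (SE 0.39; limma adjusted p = 0.182), or 0.85 without PTU pup 1. *Slc12a2* was at -0.31 (SE 0.14; limma adjusted p = 0.286), with means of 2890 ± 560 and 2335 ± 443. *Stk39*, a kinase that activates the importer, was at -0.41 (SE 0.23).

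Of 15 genes for glutamate transport and cycling, 6 were higher and 9 lower, and 8 were higher with equal totals (78.5% of all rows). Of the 6 and the 9, 1 and 3 had an unadjusted p under 0.05. The lower of these were *Glul*, the glial glutamine synthetase (log2 fold change -0.37, SE 0.10; limma adjusted p = 0.146), and the glutamine carriers *Slc38a1* (-0.36, SE 0.13) and *Slc38a3* (-0.27, SE 0.11), and the higher was the neuronal carrier *Slc1a1* (0.75, SE 0.28, or 0.47 without PTU pup 1). Of 17 auxiliary subunits of AMPA and kainate receptors with a row, 10 were higher and 7 lower. With equal totals 15 were higher (78.5% of all rows), and without PTU pup 1 it was 8 (50.2% of all rows). *Neto2*, an auxiliary subunit of kainate receptors, was higher by 0.49 (SE 0.12; limma adjusted p = 0.122; 0.46 without PTU pup 1), with 708 to 1126 normalized counts in control pups and 1013 to 1395 in PTU exposed pups. *Neto1* was at 0.91 (SE 0.40; 0.55 without PTU pup 1), *Cacng3* at 1.19 (SE 0.50) and *Shisa8* at -0.50 (SE 0.19).

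Of 21 glutamate receptor scaffolds with a row, 19 were higher (90.5%, background 50.7%), and 4 higher (19.0%, background 8.11%) and 1 lower (4.76%, background 8.2%) had an unadjusted p under 0.05. The lower one was *Dlg1*, for the scaffold SAP97 that is also found at epithelial junctions. Its groups did not overlap, at 1861 to 2384 normalized counts in control pups and 1444 to 1705 in PTU exposed pups (0.596% of all rows did not overlap), and its log2 fold change was -0.37 (SE 0.08; limma adjusted p = 0.122; -0.36 without PTU pup 1). *Nsf*, which recycles AMPA receptors, was at 0.52 (SE 0.19), *Dlgap4* at 0.21 (SE 0.08) and *Dlg4*, for the scaffold PSD-95, at 0.45 (SE 0.18), and without PTU pup 1 these values were 0.33, 0.17 and 0.27. Of 7 genes for ligands and partners of delta receptors, 6 were higher, and *Nrxn3*, a presynaptic neurexin, had an unadjusted p under 0.05 (0.37, SE 0.13; limma adjusted p = 0.205). *Nrxn2* was at 0.20 (SE 0.11) and the cerebellin *Cbln4* at 0.54 (SE 0.66), or at 0.11 and 0.30 without PTU pup 1. Of 7 genes that set glycine and D-serine at NMDA receptors, 2 were higher and 5 lower. With equal totals in all pups 5 were higher, where 78.5% of all rows were. *Gldc*, which breaks down glycine, was at -0.31 (SE 0.10; limma adjusted p = 0.175), *Srr*, which makes D-serine, at 0.35 (SE 0.12; limma adjusted p = 0.178), *Shmt2* at -0.17 (SE 0.11) and *Slc7a10* at -0.25 (SE 0.20).

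Across the settings described in the closing section, 5 subunits had an unadjusted p under 0.05 under all 25 alternatives, among them *Grik3*, *Grm4* and *Grm5*. This was 16.1% of the 31 subunits tested in every setting, against 4.78% of the 11027 rows tested in every setting. All 5 were higher in PTU exposed pups. In *Grik3* and *Grm4* all 6 PTU exposed pups lay above the control mean, and in *Grm5* 5 of 6 did.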

How the data were processed

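Total RNA libraries came from laser microdissected VZ of 13 male PN2 pups, 7 control and 6 PTU, grouped by the sample labels. The authors trimmed reads with Trimmomatic, used STAR 2.7.8a for alignment to mRatBN7.2, and estimated counts in Partek (expectation/maximization) with median ratio scaling of each pup. The deposited signal is called normalized counts here. The methods name a RefSeq annotation, whereas deposited rows carry Ensembl identifiers. Reads shared by related transcripts were divided by the model. The authors' DESeq2 comparison is also deposited, with a p-value, an FDR, a ratio of group means, its log2, a signed fold change (a score) and group means, and none of these columns was used. The methods state that the captured RNA was partly degraded.

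Rows with a mean of at least 10 (14606 of 14716) were transformed to log2(normalized count + 1), a scale that compresses differences of rare transcripts, and compared with limma 3.58.1 in R 4.3.3 (empirical Bayes with a variance trend, two-sided, Benjamini-Hochberg adjustment over all rows, threshold 0.05). Subunits, and all rows as background, were also compared by exact permutation of the group labels among the 13 pups, and 6 within-pup log2 ratios with the same test, adjusted over the 6. Other steps used Python 3.11.15, scipy 1.17.1 and pandas 2.3.3. The limma step was tested on simulated data.

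Reads behind the values, judged by the spacing of small normalized counts, numbered 22287022 to 44379710 per pup. Whole multiples of that spacing made up 88.9 to 90.5% of values between 20 and 150 (within 0.05 of it), too few to recover reads, so no count model was fitted. The 3 highest rows took 32.4 to 60.1% of reads in control and 23.9 to 57.0% in PTU exposed pups.

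Members, companion lists (8), marker lists (12) and tests were chosen with earlier results of these data known. Described in full were subunits with an unadjusted p under 0.05, any with groups that do not overlap and the highest mean of each family, and from each companion list the 4 smallest p-values, except that 5 subunits, a ratio and some companion genes that met this rule or the name rule are not reported here. Alternatives were pseudocounts of 10 and 0.1, no filter, a mean of at least 100, TMM factors (own implementation), the same total, quantile normalization, summed rows of a gene, no variance trend, array weights, a block for the replicate number, each pup left out and, chosen after seeing the data, a robust variance prior. Protein and transcript sequences and transcript lengths were not used here.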

Additional observations from a re-analysis of the deposited data

Results flagged for a closer look

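Within each group, the gap between the most extreme pup and its nearest neighbour was compared with the whole range of the group (Dixon's 95% limit). Of 62 combinations of group and subunit, for the 31 subunits described singly, 10 passed that limit. About 1 in 20 would pass by chance if values were normally distributed, which was not tested for these untransformed counts. In 7 of the 10, PTU pup 1 was far above the other PTU exposed pups, which was so for 4.71% of all rows. Its normalized counts were 1590 for *Gabra2*, 1833 for *Gabra5*, 4297 for *Gabbr2*, 666.7 for *Grin2a*, 4556 for *Grin2b*, 592.5 for *Grik4* and 560.9 for *Grm7*. The same pup held 2992 normalized counts of *Slc17a7* and the highest sum of neuron markers. Its sum of glutamate neuron markers was not the highest, and that of GABA neuron markers (14101) was the lowest of the PTU exposed pups. The part of its neuron content in these values was not tested.

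The *Grin2c* value of PTU pup 2, 65.61, was far above the other PTU exposed pups. Among control pups, *Grm7* in control pup 1 (138.1) and *Gabrg3* in control pup 2 (206.6) stood above the rest. No extreme pup was found in the 10 groups of the 5 within-pup ratios described.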

How the results depend on the processing

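No subunit passed an adjusted p of 0.05 under any of 25 alternatives, and 29 of 36 kept their sign under every alternative. Over all rows, 0 calls became 40 with array weights and 0 to 179 with 1 pup left out (7 without control pup 6, 179 without PTU pup 2). The 13 subunits with an unadjusted p under 0.05 became 8 without a variance trend (22.2%, against 15.2% of all rows) and 6 to 18 with 1 pup left out (12.3 to 20.5% of all rows). With the same total for every pup, *Gabra4* (0.0621), *Gabrg1* (0.0381), *Gabrg3* (0.197) and *Grid1* (0.0344) were above 0 and below the median of all rows (0.204). *Grik4* was at -0.00433 with TMM factors and -0.24 with array weights, and *Grik5* at -0.00758 with array weights. Array weights also gave 0.908 for *Gabra5*, 0.0896 for *Grin2d* and -0.12 for *Grm8*. With 1 pup left out, log2 fold changes ran from -0.13 to 0.15 for *Gabrg3*, -0.0154 to 0.291 for *Grik2*, -0.31 to 0.19 for *Grik4* and -0.0339 to 0.095 for *Grik5*. The ratio differences ran from -0.15 to 0.14 for *Grin2a* over *Grin2b*, -0.026 to 0.0806 for *Gria2* over *Gria1*, 0.37 to 0.89 for *Gabbr2* over *Gabbr1*, 0.0944 to 0.309 for *Grin3a* over *Grin1* and 1.19 to 1.66 for *Slc12a5* over *Slc12a2*. The causes were not tested. Subunits with means under 100 rest on few reads in some pups.

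The replicate numbers share no litter, and deviations of same-numbered pups correlated from -0.07 to 0.20, above every correlation with another number for replicate 2 only. With the replicate number as a block, 18 rows and 0 subunits were called, 20 subunits (55.6%, against 20.2% of all rows) had an unadjusted p under 0.05, and *Grik4* was at -0.0351. The block changed no call among the ratios.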
